A study of Mus musculus with 6 samples.

Results

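The genes examined here encode the nuclear subunits of the respiratory chain and of the ATP synthase in mouse liver. They were taken by symbol: every row beginning with Ndufa, Ndufb, Ndufc, Ndufs, Ndufv, Uqcr or Atp5, without assembly factors (Ndufaf) and pseudogenes (-ps), together with Sdha to Sdhd and 10 named Cox genes. This gave 81 of the 22851 genes in the matrix: 42 of complex I, 4 of complex II, 8 of complex III, 10 of complex IV and 17 of the ATP synthase, also called complex V. The rule on symbols used no measured value, but the genes were chosen with earlier results of these data known.

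The respiratory chain lies in the inner mitochondrial membrane. Complex I takes electrons from NADH and complex II takes them from succinate, and both pass them by way of coenzyme Q to complex III, which hands them through cytochrome c to complex IV and oxygen. Complexes I, III and IV pump protons as they do so, and the ATP synthase lets the protons flow back to make ATP. Complex II, succinate dehydrogenase, is also an enzyme of the citric acid cycle and is the complex with no mitochondrially encoded subunit. Hepatocytes hold many mitochondria and burn fatty acids through this chain.

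The livers came from male C57BL/6J mice, and every group was fed a high-fat diet. The treated mice received ONX-0914, an inhibitor of the immunoproteasome subunit PSMB8, injected subcutaneously at 10 mg/kg on alternate days over 6 weeks, and the controls received vehicle. There were 3 libraries of each kind, ONX-0914 1, 3 and 4 and vehicle 1, 2 and 4, although the design text speaks of 2 biological replicates per group. Which libraries are separate animals is not stated, so a p-value here reflects only how these libraries scatter, which may in part be technical.

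Expression was deposited as FPKM, which is per transcript length and library size. Levels of different genes are set side by side on that scale, but fold changes here also ran with transcript length, as described below. Read totals were not given, so the depth is unknown. The FPKM summed to 1041391 to 1247789 in the ONX-0914 libraries and to 993264 to 1074027 in the vehicle libraries. Genes above 1 FPKM numbered 8908, 9870 and 8666 in ONX-0914 1, 3 and 4, and 11049, 10973 and 10961 in vehicle 1, 2 and 4. The part of this difference in the fold changes was not tested. Fold changes are ONX-0914 over vehicle on the log2(FPKM + 1) scale, which understates changes of low genes, and a gene was called when its limma adjusted p over all 10743 genes tested was under 0.05. The median gene tested was at a log2 fold change of -0.64 as deposited and of -0.17 after median-ratio scaling, so fold changes after this scaling are also given. In this scaling a library is divided by its median ratio to the gene-wise geometric mean over the 6 libraries. The library ONX-0914 3 stood nearer to vehicle than the other treated libraries did, with all genes at a median of -0.38 from the vehicle mean, against -0.74 in ONX-0914 1 and -0.79 in ONX-0914 4. The 5 endothelial markers all fell, with a summed level of 17.8 to 26.7 FPKM with ONX-0914 and of 101 to 105 FPKM with vehicle. Of the 5 Kupffer cell markers 3 fell, with sums of 249 to 391 FPKM with ONX-0914 and of 576 to 1005 FPKM with vehicle. Of the 5 stellate cell markers 4 fell, with sums of 49.9 to 105 FPKM with ONX-0914 and of 232 to 296 FPKM with vehicle. Of the 6 hepatocyte markers 1 rose and 2 fell, with sums of 52929 to 82897 FPKM with ONX-0914 and of 75812 to 81518 FPKM with vehicle. These marker counts stand beside 2.56% of all genes tested that rose and 43.5% that fell. Markers of muscle and fat tissue, which also hold many mitochondria, summed to at most 0.07 and 0.21 FPKM in any library. In bulk liver, fewer cells of a type and less RNA per cell cannot be told apart, and the part of the cell markers in the values below was not tested.

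Most of the 81 genes had somewhat higher values with ONX-0914, whereas the median gene of the liver had a lower one, and complex II was the exception. As deposited, 59 of the 81 had a positive fold change and 22 a negative one, with a median log2 fold change of 0.27, and 77 lay above the median of all genes tested. Few single genes passed the test, however. In limma 5 rose, against 2.56% of all genes tested, namely Ndufa5 and Ndufb2 of complex I, Uqcrq of complex III, Cox6c of complex IV and Atp5e of complex V. A further 6 fell, against 43.5% of all genes, namely Ndufs1 and Ndufa4l2 of complex I, Sdha, Sdhc and Sdhd of complex II, and Atp5a1 of complex V. The other 70 were not called. All 81 passed the filter on low values, so none was left untested.

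By complex the medians were 0.29 for complex I, -0.81 for complex II, 0.22 for complex III, 0.31 for complex IV and 0.27 for complex V, all as log2 fold changes of the deposited values. After median-ratio scaling they were 0.89, -0.21, 0.82, 0.91 and 0.87 in the same order. On that scale 35 of the 81 rose, against 9.64% of all genes, and 2 fell, Sdhd and Ndufs1, against 18.7%. Of the 35, complex I held 24, complex III 2, complex IV 3 and complex V 6. The number of rises thus depended on the scaling. The order of the complexes could hardly change, because this scaling divides all genes of a library by the same factor. With each library's trend over transcript length removed, as described below for principal transcripts, the medians were 0.29, -0.008, 0.24, 0.20 and 0.17 in the same order. In that fit 2 of the 4 complex II genes were above 0.

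**Figure D1:**
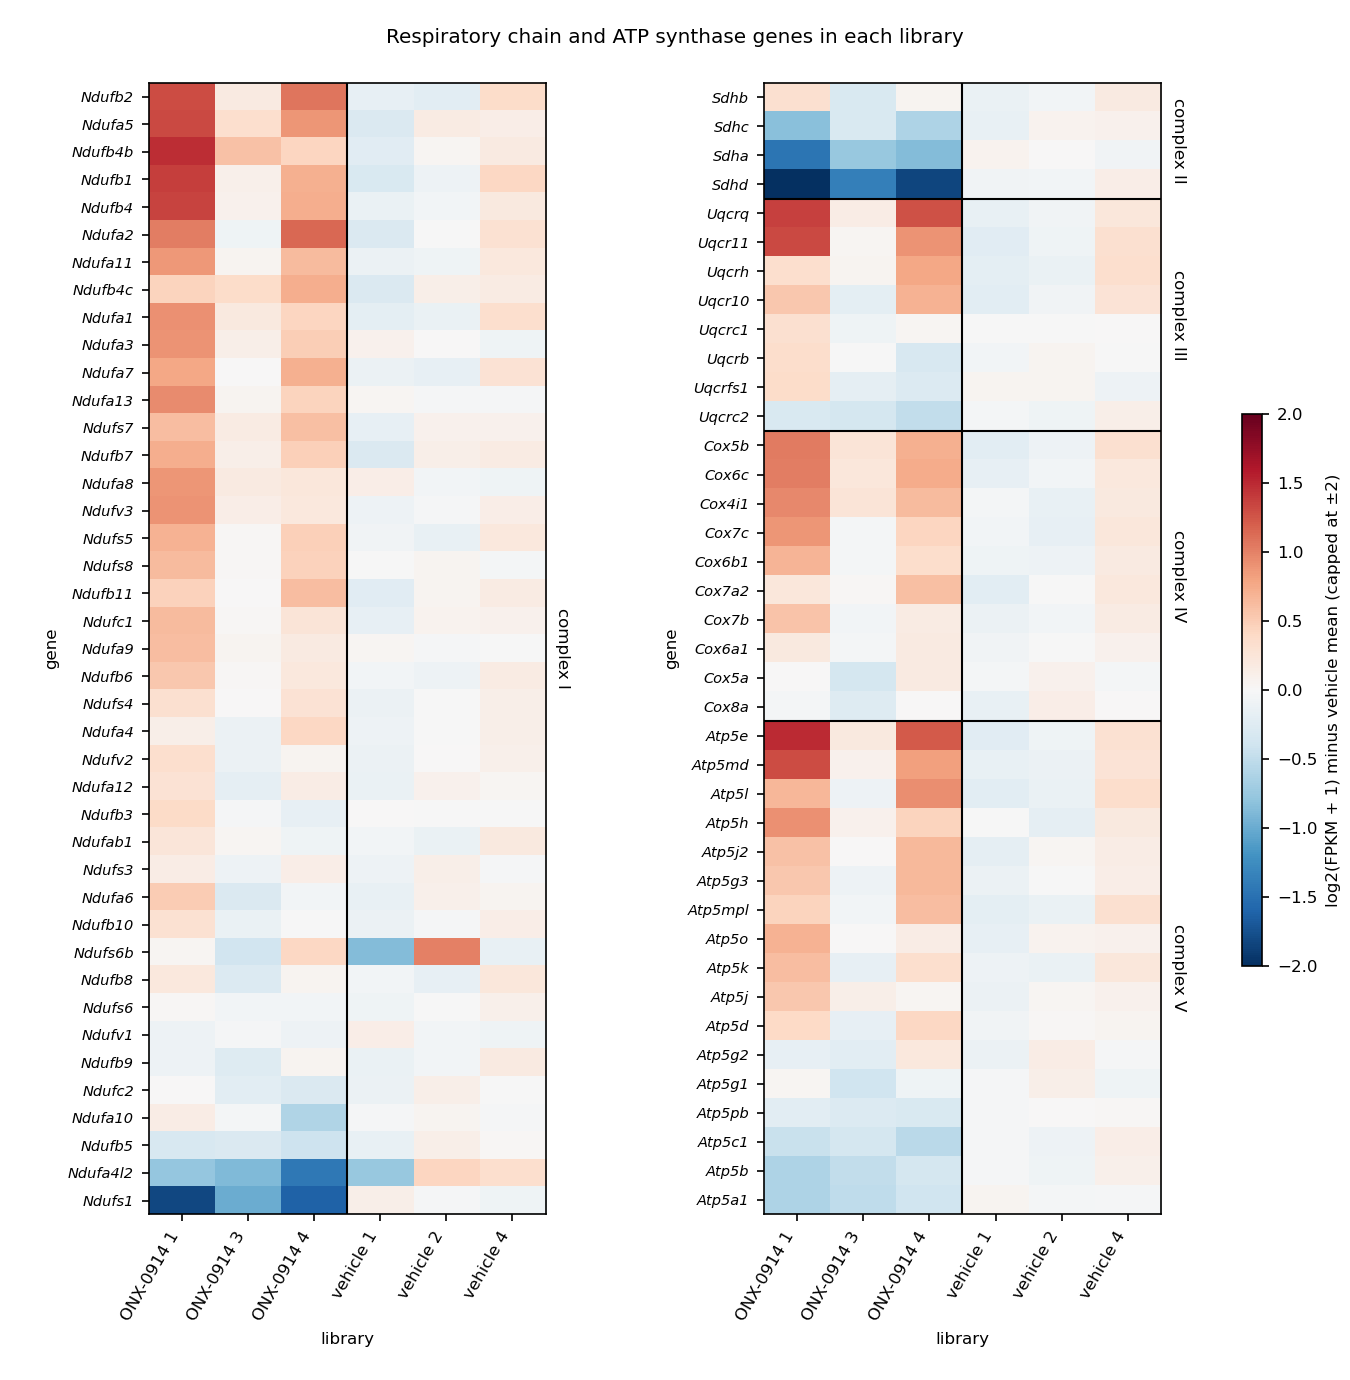
Each cell is the log2(FPKM + 1) of a gene in a library minus the vehicle mean, with the 3 ONX-0914 libraries left of the 3 vehicle libraries and genes ordered by fold change within each complex; colours are capped at 2 either way and 80 of the 81 genes are drawn. Red cells dominate in ONX-0914 1 and 4, ONX-0914 3 is near white for most genes, and Sdha, Sdhc, Sdhd and Ndufs1 are blue in all 3 treated libraries.

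The shift differed between the treated libraries. The median of the 81 genes lay 0.46 above the vehicle mean in ONX-0914 1 and 0.25 above it in ONX-0914 4, but at -0.03 in ONX-0914 3, on the log2 scale. The vehicle libraries themselves lay at -0.11, -0.02 and 0.13. The summed level of the 5 leukocyte markers also differed between libraries, at 1346, 108 and 2824 FPKM with ONX-0914 and at 189, 163 and 1121 FPKM with vehicle, so that ONX-0914 1 and 4 were highest, ONX-0914 3 was below all others and vehicle 4 was the highest control. Of these markers 3 passed the filter on low values. Of the 3, 1 fell and none rose as deposited, with a median log2 fold change of -0.64. A sum follows its most abundant genes, so it need not show the level of these markers as a set. The part of these markers in the shift was not tested. Leaving out ONX-0914 3 brought the count to 36 higher, where 6.89% of all genes were called higher, and 8 lower, where 60.6% were called lower. Set against vehicle alone, ONX-0914 3 gave no rise by limma, where 2.88% of all genes rose, and 3 falls, where 27.9% fell; at an unadjusted p under 0.05 it gave 1 rise and 5 falls. The 3 falls were Sdhd, Ndufs1 and Sdha, and the spread there comes from the vehicle libraries only. Without any 1 of the other libraries limma called no rise among the 81, with 0 to 13 at an unadjusted p under 0.05. The 5 rises as deposited were thus lost when any library other than ONX-0914 3 was left out. In 11 of the 81 genes the 3 ONX-0914 libraries were all above the 3 vehicle libraries, against 4.93% of all genes tested, and in another 11 they were all below, against 53.5%.

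**Figure D2:**
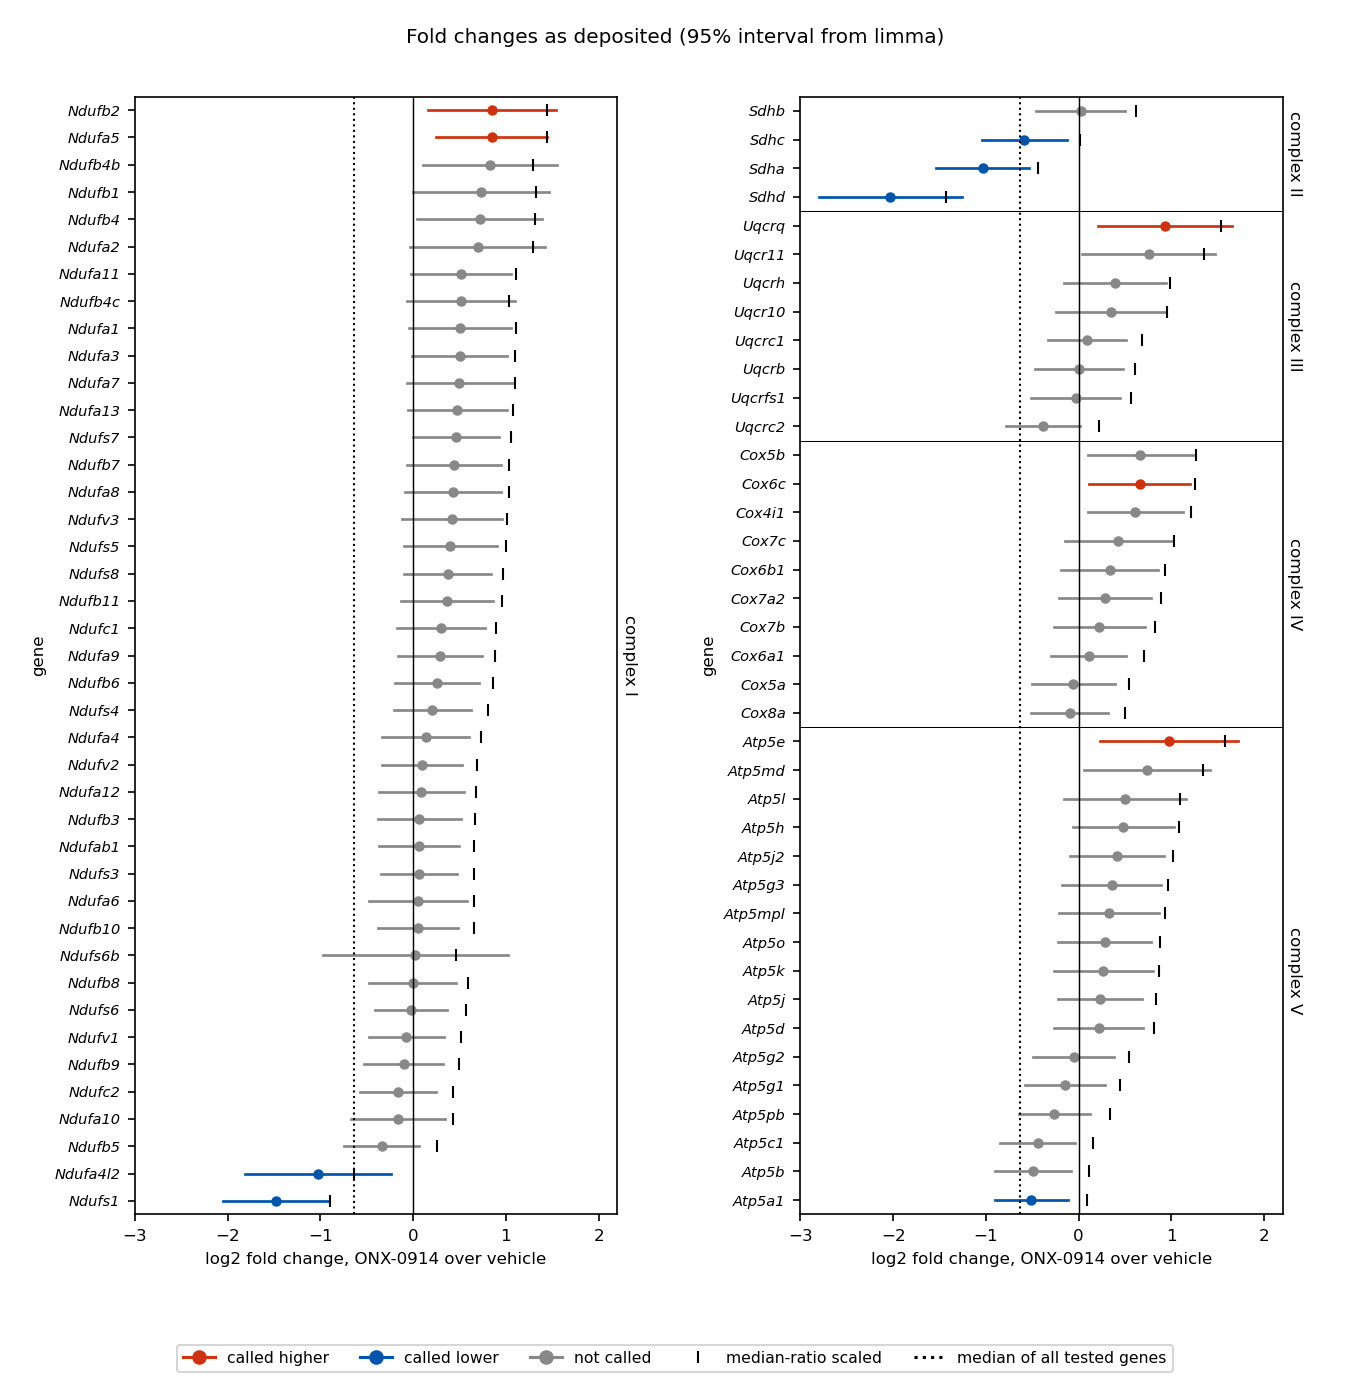
Points are log2 fold changes of ONX-0914 over vehicle from the deposited FPKM with their 95% intervals, ticks are the same after median-ratio scaling, and the dotted line is the median of all genes tested, with 80 of the 81 genes drawn. Complex II spans -2.03 to 0.02, whereas most genes of the other complexes lie right of the dotted line and 70 of the 81 were not called.

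Complex II, succinate dehydrogenase, has 4 subunits, and its transcripts did not move together. Sdhd, the small membrane anchor that helps to bind heme and coenzyme Q, is encoded at chr9:50596357-50603812 on the minus strand (GRCm38). With ONX-0914 it had 51.1, 149 and 107 FPKM in libraries 1, 3 and 4, and with vehicle 365, 372 and 419.9 FPKM in libraries 1, 2 and 4. The groups lay far apart, and ONX-0914 1 was the lowest library. The log2 fold change was -2.03 (SE 0.34, 95% interval -2.80 to -1.26, limma adjusted p = 0.0030), and it was -1.43 after median-ratio scaling (adjusted p = 0.0170). Sdhd was lowest in fold change of all 81 genes as deposited, and dividing each library by a factor leaves such an order nearly as it was. It was called in all 19 fits run, among them each fit without 1 library. In ONX-0914 3 alone it was at -1.36.

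Sdha, the flavoprotein that oxidises succinate (chr13:74322254-74350280, minus strand), was at 79.5, 129.7 and 120.2 FPKM with ONX-0914 and at 232, 222 and 209 FPKM with vehicle. All 3 treated libraries were below all vehicle libraries. Its log2 fold change was -1.03 (SE 0.22, limma adjusted p = 0.0069). It was called in each fit without 1 library, but not after median-ratio scaling, where it was -0.44 (adjusted p = 0.154). Sdhc, the other membrane anchor, was at 158, 229 and 184 FPKM with ONX-0914 and at 254, 296 and 299 FPKM with vehicle, again without overlap. It fell by 0.58 on the log2 scale (SE 0.20, limma adjusted p = 0.0404), but it was at 0.01 after median-ratio scaling (adjusted p = 0.961), so its direction depended on the scaling. Sdhb, the iron-sulfur subunit that carries electrons from SDHA to coenzyme Q, was at 515, 334 and 430.2 FPKM with ONX-0914 and at 377, 398 and 469 FPKM with vehicle. The groups overlapped, and the log2 fold change was 0.02 (SE 0.21, limma adjusted p = 0.932).

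Ratios between subunits within a library do not depend on the scaling. Where the genes differ in transcript length, however, these and the later ratios keep the dependence on length that is described below. Its part in the ratios was not tested. The ratio of Sdhd to Sdhb was 0.099, 0.445 and 0.249 with ONX-0914 and 0.967, 0.933 and 0.895 with vehicle, means of 0.264 ± 0.173 with ONX-0914 and 0.932 ± 0.036 with vehicle (SD, n = 3 each). The ratio of Sdha to Sdhb averaged 0.274 ± 0.117 with ONX-0914 and 0.539 ± 0.086 with vehicle (SD, n = 3 each). Neither ratio overlapped between the groups, while that of Sdhc to Sdhb did. With 3 libraries against 3, a two-sided exact permutation test cannot go below p = 0.10, so no p is given for a ratio. Summed over its 4 genes, complex II took 0.0728 ± 0.0071% of the summed FPKM with ONX-0914 and 0.127 ± 0.0033% with vehicle (SD, n = 3 each). It was the complex whose share was lower in every treated library than in every vehicle library. Of its 4 assembly factor genes 1 fell, against 43.5% of all genes tested. This was Sdhaf2, which helps to attach the flavin to SDHA. It was at -0.87 (SE 0.28, limma adjusted p = 0.0291) as deposited and at -0.30 after median-ratio scaling (adjusted p = 0.329). None of the 4 rose, in limma or at an unadjusted p under 0.05.

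**Figure D3:**
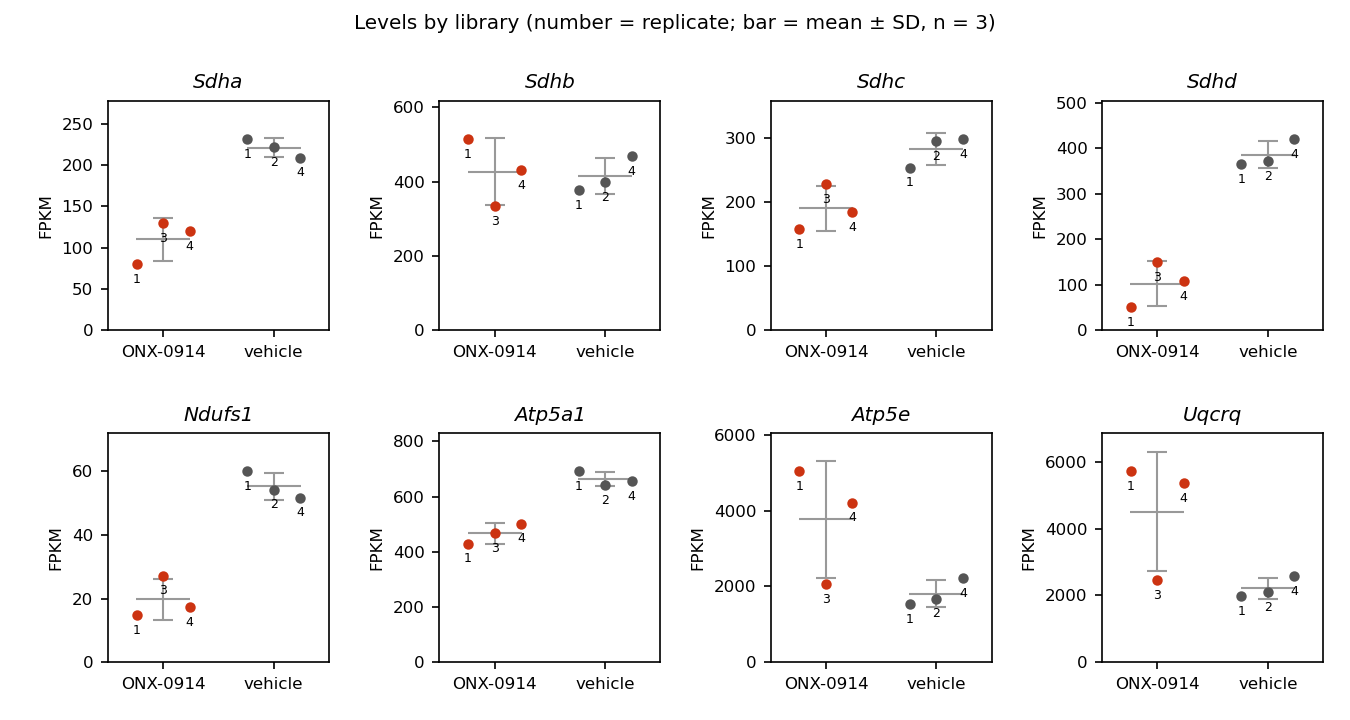
FPKM of 8 genes in each library, with ONX-0914 left of vehicle, numbers giving the replicate and bars the mean ± SD (n = 3). Sdha, Sdhc, Sdhd, Ndufs1 and Atp5a1 do not overlap between the groups, Sdhb does, and Atp5e and Uqcrq are high in ONX-0914 1 and 4 but near vehicle in ONX-0914 3.

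The promoters of Sdhd and Sdha are shown as examples from genes that fell, and those of Ndufa5 and Atp5e as examples from genes called higher, each with a motif. Each sequence is the 110 bases before the RefSeq start (GRCm38.p6), read 5′ to 3′ on the gene's strand, all of them on the minus strand. Of the 2 RefSeq starts of Ndufa5 the one farther upstream was used. GENCODE places the start farther upstream still for Ndufa5, at chr6:24528013, and for Sdha, at chr13:74350280. By GENCODE the Ndufa5 sequence thus lies inside the gene. So does the end of the Sdha sequence, with the NRF1 motif nearest the RefSeq start. Capitals mark the NRF1 motif, which is GCGCA, 1 base of any kind and GCGC, or CCGGAAG and its reverse complement CTTCCGG, an ETS motif read by GABPA; both factors are known regulators of respiratory chain genes.
Sdhd (chr9:50603850-50603959): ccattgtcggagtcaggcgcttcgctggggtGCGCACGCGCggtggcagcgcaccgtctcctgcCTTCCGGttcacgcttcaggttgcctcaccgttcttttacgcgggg
Sdha (chr13:74350241-74350350): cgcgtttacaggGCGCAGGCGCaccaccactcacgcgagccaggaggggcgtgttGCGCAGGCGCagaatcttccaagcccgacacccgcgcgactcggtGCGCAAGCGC
Ndufa5 (chr6:24527691-24527800): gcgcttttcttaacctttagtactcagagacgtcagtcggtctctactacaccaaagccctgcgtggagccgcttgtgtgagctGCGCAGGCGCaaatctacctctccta
Atp5e (chr2:174464102-174464211): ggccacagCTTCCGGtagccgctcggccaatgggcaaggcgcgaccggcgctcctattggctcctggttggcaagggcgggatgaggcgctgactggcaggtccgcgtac

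In these windows Sdha held 3 copies of the NRF1 motif and Sdhd 1, beside 1 ETS motif, while Ndufa5 held 1 NRF1 motif and Atp5e 1 ETS motif. The same window of Ndufb2, also called higher, held neither motif and is not printed. RefSeq windows from 250 bases before to 50 bases after the start were found for 66 of the 81 genes and were searched on both strands. The NRF1 motif was in 17 of them, or 25.8%, against 7.17% of 17492 coding genes, and CCGGAAG was also in 17, or 25.8%, against 12.9%. AAGATGGC, a motif of YY1, was in 10, or 15.2%, against 3.57%, and TCAAGGTCA, a motif of ERRα, was in 2, or 3.03%, against 0.377%. The CCAAT box, CCAAT, was in 27, or 40.9%, against 42.3%. None of these motifs overlapped another in the windows of the 66 genes, and a match is a description of the letters only.

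Sdhd, Sdha and Ndufs1 each have a neighbour that starts close by on the opposite strand. Timm8b, which encodes a small chaperone of mitochondrial import, starts 98 bases from Sdhd in GENCODE, inside the window printed above, and was at 391, 279 and 383 FPKM with ONX-0914, against 233, 259 and 276 FPKM with vehicle. The 3 treated libraries were above all vehicle libraries, but the log2 fold change of 0.44 did not pass (limma adjusted p = 0.0984), whereas 1.04 after median-ratio scaling did (adjusted p = 0.0252). Eef1b2, a translation elongation factor gene that starts 8 bases from Ndufs1, was at 226, 294 and 343 FPKM with ONX-0914 and at 317, 316 and 324 FPKM with vehicle, a log2 fold change of -0.17 (limma adjusted p = 0.504). Ccdc127, 29 bases from Sdha, was at 3.18, 15.9 and 3.85 FPKM with ONX-0914 and at 12.4, 13.9 and 10.0 FPKM with vehicle, overlapping (-0.89, limma adjusted p = 0.153). By their annotated starts only Ndufs1 and Eef1b2 overlap, while a gap lies between the genes of the Sdhd and Sdha pairs. The labels do not say whether strand was used in counting, so reads from the overlapping ends of Ndufs1 and Eef1b2 may be shared.

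Complex I passes electrons from NADH through a flavin and a chain of iron-sulfur clusters held by core subunits. Among those named here, Ndufs1 was the one called. NDUFS1 is the largest core subunit and holds several of the clusters, and its gene lies at chr1:63143596-63176833 on the minus strand. It was at 14.9, 27.2 and 17.2 FPKM with ONX-0914 and at 59.8, 54.1 and 51.6 FPKM with vehicle. The groups did not overlap, and the log2 fold change was -1.48 (SE 0.25, limma adjusted p = 0.0031), or -0.90 after median-ratio scaling (adjusted p = 0.0177). Like Sdhd, Ndufs1 was called in all 19 fits.

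The core subunit that takes electrons from NADH, Ndufv1, was at 92.6, 97.3 and 92.3 FPKM with ONX-0914 and at 108.6, 95.6 and 93.9 FPKM with vehicle, a log2 fold change of -0.08 (limma adjusted p = 0.743). The ratio of Ndufs1 to Ndufv1 was thus 0.209 ± 0.062 with ONX-0914 and 0.555 ± 0.0089 with vehicle (SD, n = 3 each), without overlap. Ndufs7, which holds the last cluster, averaged 126 ± 21.1 FPKM with ONX-0914 and 90.3 ± 8.89 FPKM with vehicle (SD, n = 3 each). It did not pass as deposited (limma adjusted p = 0.0888), but passed after median-ratio scaling, at 1.06 (adjusted p = 0.0222). Ndufs8, an iron-sulfur subunit, did likewise, with a log2 fold change of 0.37 as deposited (adjusted p = 0.168) and of 0.97 scaled (adjusted p = 0.0306). Ndufs3 and Ndufv2 were at 0.06 and 0.09 and passed on neither scale.

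Among the accessory subunits, which surround the core and are needed for its assembly and stability, 2 rose. Ndufa5 was at 427, 216 and 315 FPKM with ONX-0914 and at 139, 192 and 187 FPKM with vehicle. The groups did not overlap, though ONX-0914 3 was close to the vehicle libraries. The log2 fold change was 0.85 (SE 0.27, limma adjusted p = 0.0296), and Ndufa5 was called in 12 of the 19 fits. Ndufb2 was at 914, 419 and 783 FPKM with ONX-0914 and at 332, 322 and 479 FPKM with vehicle, so that ONX-0914 3 lay within the vehicle range. Its log2 fold change was also 0.85 (SE 0.31, limma adjusted p = 0.0456).

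Ndufa4 was the most abundant gene of the Nduf families, at 1769, 1497 and 2174 FPKM with ONX-0914 and at 1515, 1619 and 1772 FPKM with vehicle; its protein is now assigned to complex IV. The groups overlapped and its log2 fold change was 0.13 (limma adjusted p = 0.606). Ndufa4l2, a related gene known to be induced by low oxygen, was near the floor, at 1.7, 1.5 and 0.72 FPKM with ONX-0914 and at 1.73, 5.20 and 4.79 FPKM with vehicle. It was called lower (-1.03, SE 0.35, limma adjusted p = 0.0377), but not after median-ratio scaling (-0.64, adjusted p = 0.187), and vehicle 1 was close to ONX-0914 1. The other accessory genes ranged from -0.34 for Ndufb5 to 0.83 for Ndufb4b, and none was called. Ndufb4b, Ndufb4c and Ndufs6b, all under 10 FPKM in mean, are near copies of Ndufb4 and Ndufs6, and their reads are uncertain. Complex I as a whole took 1.10 ± 0.18% of the summed FPKM with ONX-0914 and 0.983 ± 0.046% with vehicle (SD, n = 3 each).

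Complex III moves electrons from coenzyme Q to cytochrome c. None of its core genes was called. Uqcrc2, a core subunit, was at 242, 235 and 213 FPKM with ONX-0914 and at 292, 283 and 326 FPKM with vehicle. Though the groups did not overlap, its log2 fold change of -0.38 did not pass (limma adjusted p = 0.101). Uqcrc1, the other core subunit, and Uqcrfs1, the Rieske iron-sulfur protein, were at 0.09 and -0.03 (adjusted p = 0.7 and 0.913).

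Uqcrq, a small subunit that binds next to cytochrome b, was the highest of all 81 genes, at 5709, 2457 and 5356 FPKM with ONX-0914 and at 1989, 2099 and 2574 FPKM with vehicle. ONX-0914 1 and 4 stood above all vehicle libraries and ONX-0914 3 among them. The log2 fold change was 0.94 (SE 0.32, limma adjusted p = 0.0395), or 1.54 after median-ratio scaling (adjusted p = 0.0300). The ratio of Uqcrq to Uqcrc2 was 23.6, 10.5 and 25.1 with ONX-0914 and 6.82, 7.43 and 7.91 with vehicle. This ratio did not overlap between the groups, so that the small subunit stood higher against the core subunit in ONX-0914 3 too.

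Complex IV reduces oxygen, and its catalytic subunits are encoded in the mitochondrion while the nuclear ones surround them. Cox6c, one of these small membrane subunits, was at 2183, 1254 and 1794 FPKM with ONX-0914 and at 958, 1039.5 and 1248 FPKM with vehicle. The groups lay close but did not overlap, and the log2 fold change of 0.66 just passed (SE 0.24, limma adjusted p = 0.0497). It was called in 6 of the 19 fits. Cox4i1, the main regulatory subunit, was at 1842, 1135 and 1466 FPKM with ONX-0914 and at 919, 857 and 1086 FPKM with vehicle, also without overlap. Its log2 fold change of 0.61 missed the threshold (SE 0.23, limma adjusted p = 0.0507), and 1.21 after median-ratio scaling passed (adjusted p = 0.0228). Cox5b, a zinc-binding subunit, was alike at 0.67 (adjusted p = 0.0527) and 1.27 scaled (adjusted p = 0.0252). Cox5a, another subunit on the matrix side, was at 360, 279 and 404 FPKM with ONX-0914 and at 346, 379 and 347 FPKM with vehicle, a log2 fold change of -0.06 (adjusted p = 0.829). The ratio of Cox5b to Cox5a averaged 2.93 ± 0.57 with ONX-0914 and 1.78 ± 0.40 with vehicle (SD, n = 3 each), without overlap. Cox6b1, which links the copies of the complex as a dimer, was highest in mean level over the 6 libraries, at 1828 ± 453 FPKM with ONX-0914 and 1425 ± 165 FPKM with vehicle (SD, n = 3 each). Cox7c, another small membrane subunit, was next to it at 1868 ± 586 FPKM with ONX-0914 and 1350.1 ± 195 FPKM with vehicle (SD, n = 3 each), so that Cox7c had the higher mean with ONX-0914 and Cox6b1 with vehicle, by less than the spread. Cox8a had the lowest log2 fold change, -0.10. None of the 3 was called.

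Of the 17 ATP synthase genes 1 rose, Atp5e, and 1 fell, Atp5a1, against 2.56% and 43.5% of all genes. The alpha, beta and gamma subunits form the catalytic head and its rotating shaft, and the c subunits form the ring that protons turn. Atp5a1, the alpha subunit, was at 429, 468 and 502 FPKM with ONX-0914 and at 691, 641 and 654 FPKM with vehicle. Atp5b, the beta subunit, was at 699, 763 and 839 FPKM with ONX-0914 and at 1061, 1011 and 1156 FPKM with vehicle. Both were lower in every treated library, ONX-0914 3 included. Atp5a1 fell by 0.51 (SE 0.17, limma adjusted p = 0.0399) and Atp5b was at -0.49 (SE 0.18, adjusted p = 0.0515), but after median-ratio scaling they were at 0.09 and 0.11 and neither passed. The direction of both thus depended on the scaling, whereas the ratio of Atp5a1 to Atp5b did not differ beyond its spread, at 0.608 ± 0.009 with ONX-0914 and 0.617 ± 0.045 with vehicle (SD, n = 3 each). Atp5c1, the gamma subunit, was at -0.44 (adjusted p = 0.0675).

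Atp5e, the small epsilon subunit at the foot of the shaft, was at 5030.2, 2059 and 4209 FPKM with ONX-0914 and at 1534, 1682 and 2219 FPKM with vehicle. ONX-0914 3 lay within the vehicle range and the other treated libraries well above it. The log2 fold change was 0.98 (SE 0.33, limma adjusted p = 0.0372), the highest of the 81. The ratio of Atp5e to Atp5b was 7.20, 2.70 and 5.01 with ONX-0914 and 1.45, 1.66 and 1.92 with vehicle, without overlap. Atp5g1, Atp5g2 and Atp5g3 encode the same mature c subunit, and none was called (log2 fold changes of -0.15, -0.05 and 0.36). Their mix differed a little: Atp5g3 made up 75.7%, 70.6% and 75.7% of the FPKM of the c subunit genes with ONX-0914 and 66.6%, 65.3% and 70.3% with vehicle.

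**Figure D4:**
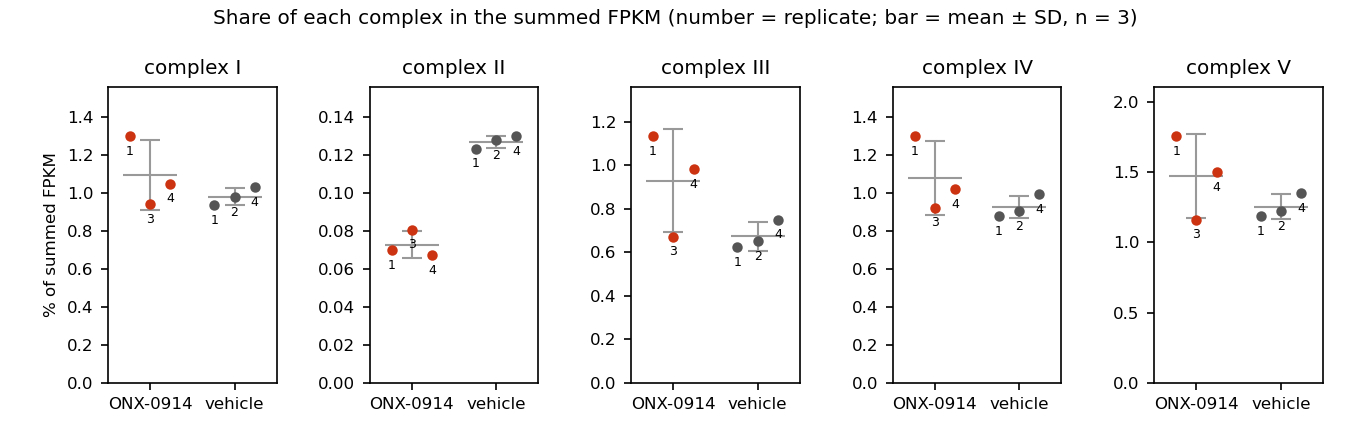
Share of the summed FPKM taken by the genes of each complex in each library, with ONX-0914 left of vehicle and bars giving the mean ± SD (n = 3). Complex II is lower in all 3 ONX-0914 libraries, and for the other 4 complexes ONX-0914 3 lies in or near the vehicle range.

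Fold changes in these libraries also ran with transcript length, and the respiratory genes are short. The principal coding transcript, known for 77 of the 81 genes, had a median of 714 bases, and 52 of the 77 were under 1000 bases. All genes tested were split by length into 4 bins of about equal size. In the shortest bin, up to 1636 bases, the median log2 fold change of all genes was -0.17, with 6.41% called higher and 22.3% called lower. That bin held 66 of the 77, with a median of 0.31. In the longest bin the median of all genes was -0.88, and none of the 77 was that long. Across the 77 genes the fold change and the log10 length had a Pearson correlation of -0.57 and a Spearman correlation of -0.54, given as a description because the genes share the same 6 libraries.

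Of the 6 genes that fell, 4 were among the longest of the 77. Sdhc has a principal transcript of 3171 bases, Sdha of 2900, Ndufs1 of 2590 and Atp5a1 of 2471, while Uqcrq has 405 and Atp5e 421. Sdhd, with 1231 bases, and Ndufa4l2, with 934, are shorter. With each library's trend over principal transcript length removed, 9 of the 77 were called higher, against 10.0% of all genes, and 2 were called lower, against 11.9%. The 2 were Sdhd, at -1.77 (adjusted p = 0.0152), and Ndufs1, at -0.75 (adjusted p = 0.0237). Sdha and Atp5a1 were then at -0.25 and 0.20 and were not called. Of the 5 genes called higher as deposited, Ndufa5 and Atp5e remained, at 0.90 and 0.62 (adjusted p = 0.0261 and 0.0469). The others included Ndufs4, Ndufa9, Ndufa13 and Ndufv3 of complex I and Cox4i1 and Cox5b of complex IV, at 0.57 to 0.84. The median of the 77 was 0.22 in that fit, beside 0.02 for all genes. With the longest coding transcript as the length instead, 6 of 80 were called higher, against 9.53% of all genes, and the same 2 were called lower, against 11.6%.

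**Figure D5:**
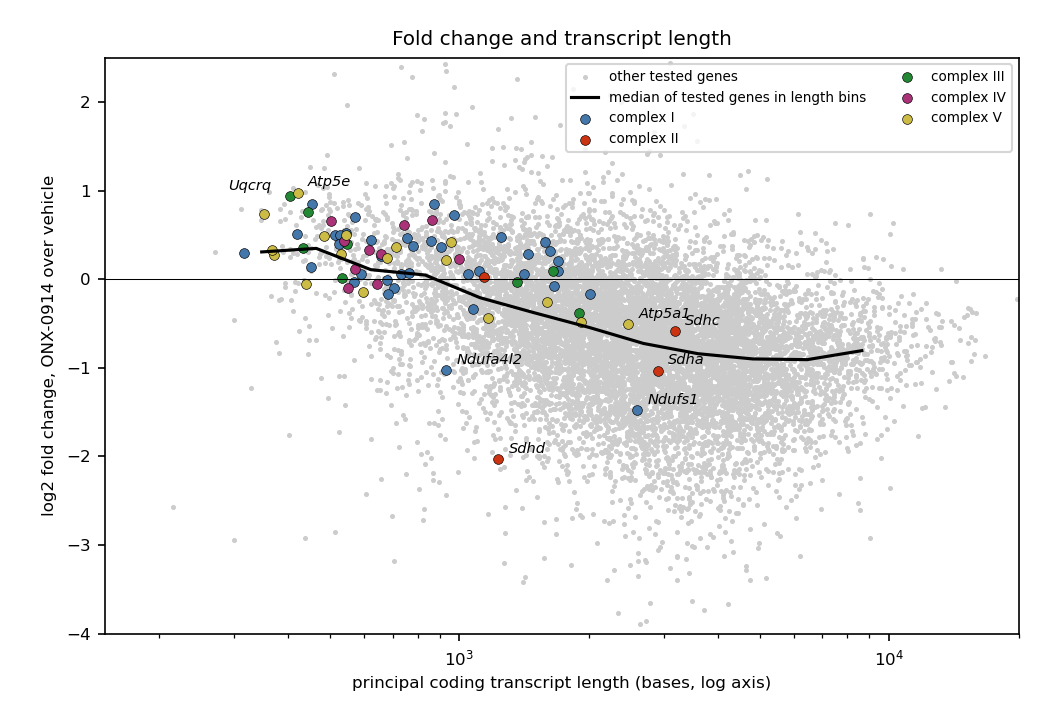
Log2 fold change of ONX-0914 over vehicle against principal transcript length on a log axis, with the respiratory genes coloured by complex over all other genes tested and a line at the median of all genes in bins of length. Most coloured points lie on or above the line among short transcripts, and Sdhd and Ndufs1 lie well below it.

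The partners of the chain were read from lists of genes chosen by function. Of 13 chain subunits encoded in the mitochondrion, 2 rose, ND3 and COX3, and 11 were not called, with a median log2 fold change of -0.03. After median-ratio scaling 4 of the 13 rose and none fell, with a median of 0.57. None of the 13 was in the fits with the length trend removed, so the part of transcript length in these rises was not tested. ND3, a membrane subunit of complex I, was at 512, 205 and 275 FPKM with ONX-0914 and at 34.4, 33.4 and 105 FPKM with vehicle (2.60, limma adjusted p = 0.0035). COX1, the catalytic subunit of complex IV, was far more abundant, at 21964, 18828 and 12099 FPKM with ONX-0914 and at 19882, 17965 and 17659 FPKM with vehicle, with overlap. The 13 genes summed to 66054, 60646 and 39404 FPKM with ONX-0914 and to 59383, 54441 and 54450 FPKM with vehicle. The groups overlapped, with ONX-0914 4 the lowest library.

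The counts of these lists stand beside 43.5% of all genes that fell and 2.56% that rose as deposited, with a median of -0.64, and beside 18.7% and 9.64% after median-ratio scaling, with a median of -0.17. Of 18 citric acid cycle genes, to which complex II also belongs by function, 10 fell and none rose, with 1 rise and 12 falls at an unadjusted p under 0.05, and the median was -0.92. After median-ratio scaling 5 fell and 2 rose, with a median of -0.33. Pdha1, of the pyruvate dehydrogenase that feeds the cycle, was at 4.75, 21.3 and 7.29 FPKM with ONX-0914 and at 59.1, 46.3 and 47.9 FPKM with vehicle (-2.34, limma adjusted p = 0.0040). Dlst, of the oxoglutarate dehydrogenase complex, was at -2.09 and Suclg2, of succinyl-CoA ligase, at -1.80. All 3 also fell after median-ratio scaling, at -1.78, -1.52 and -1.21 in that order.

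Among electron carriers and genes of coenzyme Q synthesis, 5 of 20 fell and 1 rose, a smaller share of falls than among all genes, with a median of -0.40. After median-ratio scaling 2 fell and 2 rose and the median was 0.18, so its direction depended on the scaling. Gpd2, which feeds electrons from glycerol phosphate into coenzyme Q, was at -1.91 (SE 0.34, limma adjusted p = 0.0034), and Etfdh, which does so from fatty acid oxidation, at -1.35 (SE 0.28, adjusted p = 0.0057). Cycs, cytochrome c, was at -0.10 and was not called. Of 16 assembly factors of complex I 4 fell, led by Nubpl, an iron-sulfur carrier for complex I, at 2.07, 4.03 and 3.91 FPKM with ONX-0914 and at 14.6, 11.3 and 16.4 FPKM with vehicle (-1.82, adjusted p = 0.0025). None of the 16 rose in limma, nor at an unadjusted p under 0.05. Their share of falls was below that of all genes and their median was -0.26, while after median-ratio scaling 1 rose and 1 fell and the median was 0.32. Of 26 assembly factors of complex IV 8 fell and 1 rose, again a smaller share of falls than among all genes, with a median of -0.11. After median-ratio scaling 7 rose and 3 fell and the median was 0.47. The gene that rose was Pet100, at 253, 72.6 and 196 FPKM with ONX-0914 and at 53.9, 43.3 and 69.3 FPKM with vehicle (1.48, adjusted p = 0.0192), and Cox15, needed for heme A, fell by 1.57 (adjusted p = 0.0076).

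Of 15 regulators of mitochondrial biogenesis tested, 6 fell and none rose (9 and 0 at an unadjusted p under 0.05), with a median of -0.74. Share and median were near those of all genes, and after median-ratio scaling 4 fell and none rose, with a median of -0.20. Gabpa, the ETS factor whose motif is shown above, was at 1.89, 4.83 and 0.92 FPKM with ONX-0914 and at 11.98, 10.6 and 11.4 FPKM with vehicle (-1.95, SE 0.39, limma adjusted p = 0.0050; -1.49 after median-ratio scaling, adjusted p = 0.0185). Tfam, which packages and transcribes mitochondrial DNA, was at 6.14, 18.4 and 11.4 FPKM with ONX-0914 and at 36.1, 35.6 and 35.3 FPKM with vehicle (-1.61, adjusted p = 0.0062). Ppargc1a, a coactivator of these factors, was near the floor, under 2 FPKM in every library. It fell by 1.00 (adjusted p = 0.0039), but the error of values this low cannot be judged. Esrra, the gene of ERRα, fell by 1.15 as deposited (adjusted p = 0.0121) and was at -0.61 scaled (adjusted p = 0.141). Nrf1 itself was at 1.41, 2.11 and 1.41 FPKM with ONX-0914 and at 3.05, 2.23 and 3.14 FPKM with vehicle, and was not called (-0.53, adjusted p = 0.0893).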

How the data were processed

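Per the submitters' processing notes, the tools included HISAT2 2.0.1, cutadapt 1.11, FastQC 0.11.5, edgeR and featureCounts 1.6.0, and the builds GRCm38 and mm10. Their roles and the annotation were not given in the sources used. The authors deposited one matrix of normalized values, taken as FPKM from its name and values; whether reads or fragments were counted is not stated, and no counts were used. Columns were matched to samples by title.

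Genes above 1 FPKM in at least 3 libraries (10743) were tested on log2(FPKM + 1), a pseudocount of 1, with limma (version 3.58.1, under R 4.3.3), allowing a trend in the variance, without a block, and p-values were adjusted by Benjamini-Hochberg over all of them. The fit was tested on simulated data. Alternatives were 4 scalings, removal of the length trend (lowess, GENCODE M21 transcripts), other filters and pseudocounts, a robust variance, a replicate block and each library left out. Removal of the trend over principal transcripts was added after the data were seen.

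Genes named are, per complex, the highest in level, the extremes in fold change, up to 5 called each way and the core subunits, with up to 4 called genes per list; others were named after their values were seen. One of the 81 genes is counted but not reported here singly. The genes and lists were chosen with earlier results of these data known. Promoters are from RefSeq (GRCm38.p6). Replicate numbers 1 and 4 occur in both groups, but nothing says that they pair animals.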

Additional observations from a re-analysis of the deposited data

How the results depend on the processing

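Of the 81 genes, 5 rose and 6 fell as deposited, and over all genes 275 rose and 4673 fell. Rises and falls among the 81 numbered 35 and 2 after median-ratio scaling, 42 and 2 on upper-quartile scaling, 3 and 9 with equal sums, 9 and 2 without the principal-transcript length trend, 6 and 2 without the trend over the longest transcript, 3 and 6 with a pseudocount of 0.1, 0 and 4 with no filter (9 and 9 at an unadjusted p under 0.05 in limma), 0 and 4 when the log2 fold change also had to reach 1 either way, and 0 and 3 in ONX-0914 3 alone. Over all genes they numbered 1074 and 1956 by upper quartile, 1036 and 2007 by median ratio, 1118 and 1334 by quantile, 1017 and 1236 without the longest-transcript trend, 1060 and 1260 without the principal one, 171 and 5095 with equal sums, 110 and 3062 with the fold filter, and 309 and 2992 in ONX-0914 3 alone. With 1 library left out, the 81 gave 0 to 36 rises and 3 to 8 falls, and all genes 92 to 740 rises and 2590 to 6514 falls; the highest of each came without ONX-0914 3. The median of the 81 was 0.27, and 0.87 by median ratio, 0.88 by the upper quartile and -0.032 in ONX-0914 3 alone; in every fit that left out 1 library it was above 0 (0.12 to 0.41).

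Sdhc and Atp5a1, which fell as deposited, were above 0 in 4 settings: 0.015 and 0.092 when scaled by median ratio, 0.025 and 0.10 when scaled by upper quartile, 0.19 and 0.18 without the longest-transcript trend, and 0.24 and 0.20 without the principal one. The cause of these differences was not tested.

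With the replicate number as a block, 26 of the 81 rose and 4 fell, and 604 of all genes rose and 5973 fell. Deviations of libraries with the same number correlated at 0.0011 for number 1 and 0.13 for number 4, and only 2 numbers are shared, so the numbers are not taken to pair animals. With 3 libraries per group and no read totals, small changes and the error of low values such as those of Ndufa4l2 cannot be judged.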

Other observations

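Other nuclear genes of the mitochondrion and the ribosome showed the following values. All counts in this section stand beside 2.56% of all genes tested that rose and 43.5% that fell as deposited. After median-ratio scaling these shares were 9.64% and 18.7%. Of 77 cytosolic ribosomal protein genes tested, which are also short and whose near-identical copies make their reads uncertain, 14 rose and none fell, with 32 and 0 at an unadjusted p under 0.05 in limma and a median log2 fold change of 0.36. After median-ratio scaling 60 of the 77 rose. Of 78 mitochondrial ribosomal protein genes 5 rose and 4 fell, with a median of -0.01, and after median-ratio scaling 26 rose. Of 29 genes of mitochondrial protein import 1 rose, Timm10b, and 6 fell, among them Timm23, the channel of the inner membrane, at 21.8, 53.7 and 30.9 FPKM with ONX-0914 and at 75.4, 78.6 and 94.1 FPKM with vehicle (-1.29, limma adjusted p = 0.0101). After median-ratio scaling 8 of the 29 rose and Timm23 was at -0.70 (adjusted p = 0.0813).

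Of 6 complex III assembly factors 1 rose, Uqcc2, at 102, 55.7 and 67.8 FPKM with ONX-0914 and at 39.2, 35.5 and 43.6 FPKM with vehicle (0.87, SE 0.25, limma adjusted p = 0.0209). Of 5 genes of ATP synthase assembly and inhibition 2 fell, Atpaf2 (-1.16, adjusted p = 0.0069) and Tmem70 (-1.05, adjusted p = 0.0082), and neither was called after median-ratio scaling. Of 9 subunit isoforms of other tissues 3 passed the filter and 1 fell, Ndufa4l2; Cox7a1, the muscle form, was at 17.7, 7.38 and 7.31 FPKM with ONX-0914 and at 5.69, 5.88 and 5.87 FPKM with vehicle and was not called (0.68, adjusted p = 0.127). Of 3 cholangiocyte markers tested 1 fell, and none of 4 erythroid markers was called, in limma or at an unadjusted p under 0.05.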
